A study of Mus musculus with 6 samples.

Results

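The genes described here are replication-dependent histone genes of the mouse, read in RNA from the ganglionic eminences of embryos at E13.5 (embryonic day). They were chosen by symbol, as every gene in the deposited count table named H1f1 to H1f6, or H2ac, H2bc, H3c or H4c followed by a number, or by the older Hist names. That rule took 65 of 55416 genes, made up of 6 for the linker histone H1, 18 for H2A, 17 for H2B, 12 for H3 and 12 for H4. The ganglionic eminences are swellings of the ventral embryonic forebrain with a proliferating lining, and they give rise to striatal projection neurons and to interneurons. There were 6 libraries, 3 from wild-type embryos and 3 from double knockout littermates without Dlx1 and Dlx2, which encode homeodomain transcription factors of the ventral forebrain. No other treatment or allele is given for either group. The labels do not give the knockout alleles, which part of the eminences was taken or how many embryos made up a library. They call the libraries replicates without saying that each came from a separate embryo. The p-values here therefore set the difference between groups against the spread between these libraries, which may in part be technical.

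Replication-dependent histone genes make the histones that wrap newly copied DNA, and their mRNAs accumulate in S phase and are destroyed when DNA synthesis ends. H2A, H2B, H3 and H4 form the core around which DNA is wound, and H1 binds the linker between cores. The genes lie in clusters, are short and mostly without introns, and their mRNAs end in a conserved stem-loop in place of a poly(A) tail. The stem-loop is bound by SLBP and the cut after it is made with the help of the U7 small nuclear ribonucleoprotein, of which LSM10 and LSM11 are parts. The libraries were made from total RNA after removal of ribosomal RNA, with no selection for poly(A) tails, so mRNAs without a tail were not selected against at that step.

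The stem-loop could be read in the annotated sequence of most of these genes. It was searched in GENCODE M21 transcripts (GRCm38) as the 16-base pattern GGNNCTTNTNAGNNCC, on the strand of the gene, within 100 bases after the stop codon. Of the 49 histone genes with at least 16 annotated bases after the stop codon, 43 held it (87.8%), compared with 9 of 21021 other coding genes (0.0428%). The 6 without it were H1f1, H2bc4, H2bc21, H2bc23, H2bc24 and H3c13. Of these, H3c13 and H1f1 have only 37 and 48 annotated bases after the stop. In H3c15, a near copy of H3c13, the site begins at 30 bases, and a site placed there would not fit in 37. A missing site in such short annotations is therefore not evidence that the gene lacks it. Another 15 histone genes were annotated with fewer than 16 bases after the stop, and 1, H2ac14, has no coding part in that annotation. The pattern began between 21 and 58 bases after the stop codon, with a median of 31. Each site lies in an exon, in the 3′ UTR. The sites below are shown because they are the 8 forms of the stem-loop that occurred, each from a single gene, and because they differ between classes in the stem. Capitals mark the 16-base pattern, and up to 5 bases are given on each side, with GRCm38 coordinates.
H1f4, chr13:23621777-23621802, minus strand: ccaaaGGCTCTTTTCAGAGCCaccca
H3c7, chr13:23544927-23544952, plus strand: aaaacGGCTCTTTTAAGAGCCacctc
H2ac20, chr3:96220413-96220438, minus strand: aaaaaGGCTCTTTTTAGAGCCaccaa
H3c8, chr13:23535884-23535909, plus strand: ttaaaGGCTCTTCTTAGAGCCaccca
H4c4, chr13:23581945-23581970, plus strand: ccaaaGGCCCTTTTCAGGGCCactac
H4c9, chr13:22040961-22040986, minus strand: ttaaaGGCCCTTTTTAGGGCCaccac
H4c1, chr13:23760795-23760820, minus strand: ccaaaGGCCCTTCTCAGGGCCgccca
H4c11, chr13:21735432-21735457, plus strand: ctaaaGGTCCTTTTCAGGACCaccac

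The form of H1f4 was found in 24 genes, 3 for H1, 9 for H2A, 7 for H2B and 5 for H3. The form of H3c7 was found in 6 genes, namely H1f6, H2bc12, H2bc3, H3c3, H3c6 and H3c7. No H4 gene carried either form. The H4 genes with a stem-loop had the forms seen in H4c4 (6 genes), H4c9 and H4c14 (2 genes), H4c11 and H4c2 (2 genes) and H4c1 (1 gene). The forms of H2ac20 and H3c8 were each found in 1 gene.

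The promoters of the classes also differed in the letters they held. RefSeq promoter sequences (GRCm38.p6, 250 bases before to 50 after the annotated start) were matched by symbol for 58 of the 65 histone genes, giving 59 promoters. Searched on both strands, CCAAT was present in 86.4% of them and in 37.4% of 32851 promoters of all genes. It was in every promoter found for H1 (6), H2A (17), H2B (15) and H3 (10), and in 3 of 11 for H4. The letters TATAAA of the TATA box were present in 57.6% of the histone promoters and in 13.6% of all, and 8 of 11 H4 promoters held them. Between 40 and 20 bases before the start and on the strand of the gene, they were present in 11 of the 59 (18.6%) and in 1.99% of all. The octamer ATTTGCAT, known from H2B promoters, was present in 13 of the 59, compared with 1.74% of all promoters. It was in 7 of 15 H2B and 6 of 17 H2A promoters and in none of the other classes. These 13 matches are 10 sites, since neighbouring H2A and H2B genes in opposite orientation have promoters that overlap, and 3 sites were counted for both genes of such a pair. The letters AAACACA, known from H1 promoters, were present in 5 of 6 H1 promoters, 2 of 17 for H2A, 2 of 15 for H2B and none for H3 or H4, compared with 7.18% of all promoters. None of the motifs is contained in another, and a match is not evidence of binding. The stretches below are the 120 bases before the annotated start of the most abundant H1, H3 and H4 gene and of H2bc12, an abundant H2B gene whose promoter holds the octamer. They are shown for the different make-up of the classes, and capitals mark each of the 4 motifs, in either orientation.
H1f4, chr13:23622559-23622678, minus strand: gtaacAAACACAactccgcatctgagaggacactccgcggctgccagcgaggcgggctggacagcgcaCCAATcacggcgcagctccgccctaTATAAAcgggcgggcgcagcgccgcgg
H2bc12, chr13:22035701-22035820, plus strand: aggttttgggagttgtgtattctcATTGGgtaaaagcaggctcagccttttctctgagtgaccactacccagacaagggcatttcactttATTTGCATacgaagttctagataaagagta
H3c2, chr13:23752225-23752344, plus strand: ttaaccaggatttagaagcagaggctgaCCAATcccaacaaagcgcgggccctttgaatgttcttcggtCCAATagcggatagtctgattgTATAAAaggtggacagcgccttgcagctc
H4c4, chr13:23581448-23581567, plus strand: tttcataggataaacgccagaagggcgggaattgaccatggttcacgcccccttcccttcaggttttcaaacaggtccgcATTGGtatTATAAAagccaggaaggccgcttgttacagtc

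Total counts were between 56618090 and 70114173 per library. The targeted genes matched the labels, since Dlx2 in the double knockout libraries averaged 2.94% of its wild-type level and Dlx1 18.6%. All 10 marker genes of the ganglionic eminence that were looked up were expressed above the filter, and their summed CPM was between 2122 and 2222 in wild-type and between 1621 and 1889 in double knockout libraries. Here CPM is counts per 1e+06 reads, with library sizes adjusted by TMM, which takes a trimmed average of the log ratios between libraries. Values listed by library follow the order of replicates 1 to 3. In a bulk sample such as this, fewer cells of a type and less RNA per cell cannot be told apart. Double knockout replicate 3 stood apart from the other libraries for histone and cell cycle genes, and also over all genes. A chi-square of the counts of 2 libraries, averaged over genes, was 36.45 and 30.03 for it against double knockout replicates 1 and 2. Between those 2 replicates the value was 13.18, and between wild-type libraries it was 20.78 to 21.89. Double knockout replicate 3 also had the most counted reads. The median fold change of the histone genes, counts of calls, class sums and spread between libraries are also stated without that library.

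The histone genes together took between 1.40% and 1.96% of all counted reads. The share was 1.40%, 1.58% and 1.54% in the wild-type libraries, against 1.44%, 1.51% and 1.96% without Dlx1 and Dlx2. The lowest double knockout library lay inside the wild-type range and the highest lay above it. Because near-identical copies can share reads, and it is not given whether a read could be counted for more than 1 gene, these sums may count some reads more than once.

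The cluster on chromosome 13 carried most of this signal. It holds 55 of the 65 genes and gave 94.1% of their summed CPM. The other 10 genes lie on chromosome 3 and gave 5.94%. Of those 10, 5 had no read in any library, and H3c15 alone made up most of the rest with a mean of 690 CPM. No histone gene of chromosome 13 was at 0 reads in all libraries.

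By class, summed CPM was highest for H3 (5146 ± 441 in wild type, SD, n = 3, and 5429 ± 1066 in the double knockout). H2B followed with 3668 ± 220 and 3875 ± 689, then H4 with 2844 ± 175 and 3055 ± 533. H1 had 2122 ± 148 and 2332 ± 434, and H2A the lowest sum with 1443 ± 182 and 1575 ± 393. In each class the SD of the double knockout libraries was larger than that of the wild-type libraries and larger than the difference between the means. Without double knockout replicate 3, the mean of the other 2 double knockout libraries lay below the wild-type mean in each class, at 4814 for H3, 3480.0 for H2B, 2753 for H4, 2085 for H1 and 1349.9 for H2A. To compare genes, CPM was divided by the length of the coding sequence in kilobases, as annotated in M21. On that scale the median gene was at 1501 for H3 (10 genes with reads), 699 for H4 (12), 579 for H1 (6), 378 for H2B (16) and 220 for H2A (15 with reads and a coding part). The highest single genes on that scale were H3c2 at 2457, H4c4 at 2333, H3c4 at 2076 and H2bc24 at 1995. The order depends on the length chosen, since annotated exons can be much longer than the coding sequence. H2bc24 has 2212 exonic and 402 coding bases, whereas H3c10 has 411 and 408. Exonic length was not used for scaling.

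**Figure D1:**
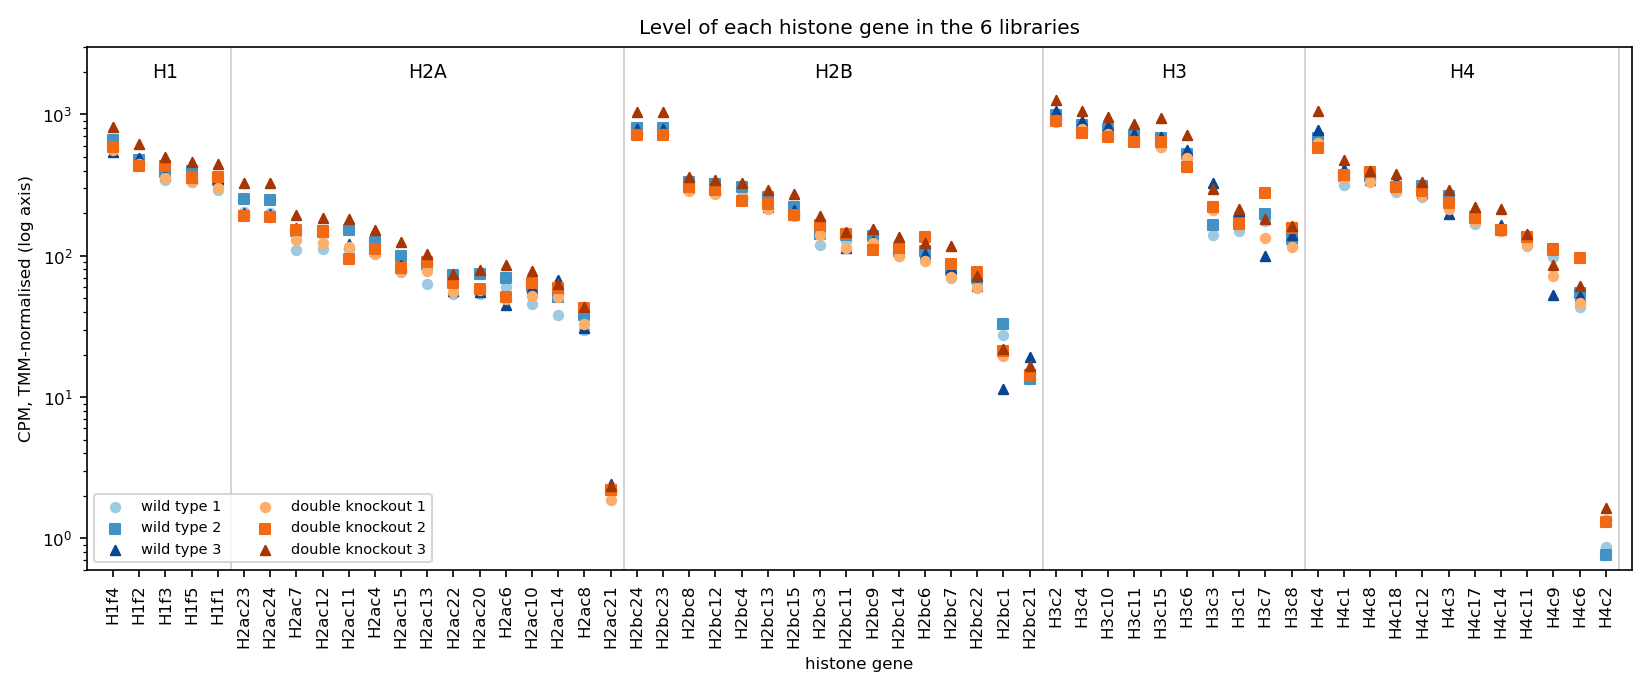
Level of the 58 histone genes at 1 CPM or more on average, in TMM-normalised CPM on a log axis, with 1 symbol per library and genes ordered by mean within each class. Double knockout replicate 3, the dark orange triangle, is the highest symbol for most genes, while wild-type replicate 1 and double knockout replicate 1 lie above the gene's mean for only 6 and 1 of the 58 genes.

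The most abundant H1 gene was H1f4, followed by H1f2, H1f3 and H1f5. H1f4 was at 572, 660 and 546 CPM in the wild-type libraries and at 565, 589 and 814 CPM in those of the double knockout. A single library, double knockout replicate 3, lay above the wild-type range. H1f1, the remaining somatic H1 gene in the set, was between 290 and 442 CPM over the 6 libraries. H1f6, the testis form of H1, had between 3 and 19 reads per library, or 0.0467 to 0.330 CPM.

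Among H2A genes, H2ac23, H2ac24, H2ac7 and H2ac12 were the most abundant. H2ac23 was at 204, 251 and 201 CPM in the wild-type and 190, 190 and 329 CPM in the double knockout libraries. H2ac24 was at 202, 249 and 198 CPM and at 188, 189 and 328 CPM. This pair of genes has the same coding sequence letter for letter, and the counts were in a ratio between 1.002 and 1.015 in each library. H2ac7 was at 110, 149 and 158 CPM in wild type and at 129, 152 and 195 CPM in double knockout libraries. H2ac12 ranged from 112 to 186 CPM over all libraries. In each of these 4 genes the highest value came from double knockout replicate 3.

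The H2B genes H2bc24 and H2bc23 were the most abundant of their class, followed by H2bc8 and H2bc12. H2bc24 was at 733, 805 and 794 CPM in wild type and at 723, 716 and 1041 CPM in double knockout libraries. H2bc23 has the same coding sequence, and the ratio of the pair's counts was between 0.9946 and 1 in every library. How reads were divided between the copies is not given in the sources used here. H2bc8 ranged from 286 to 364 CPM and H2bc12 from 274 to 342 CPM over the 6 libraries.

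For H3 the most abundant genes were H3c2, H3c4, H3c10 and H3c11. H3c2 was at 884, 999 and 1054 CPM in wild type and at 906, 899 and 1272 CPM in double knockout libraries. H3c4 was at 764, 847 and 899 CPM in wild type and at 785, 738 and 1049 CPM in double knockout libraries. H3c10 ranged from 694 to 962 CPM and H3c11 from 638 to 863 CPM. The order of the 4 genes was the same in every library, so neighbours in the order differed within a library although their ranges over libraries overlapped.

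The H4 genes were led by H4c4, H4c1, H4c8 and H4c18. H4c4 was at 611, 682 and 778 CPM in wild type and at 630, 575 and 1050 CPM in double knockout libraries, the widest spread of these 4. H4c1 was at 319, 369 and 411 CPM in wild type and at 352, 370 and 478 CPM in double knockout libraries. H4c8 was between 333 and 398 CPM over all libraries and was the steadiest of the 4. H4c18 was between 282 and 376 CPM, and H4c17, with the same coding sequence, had between 0.59 and 0.61 of its counts.

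Some histone genes were listed at 0, and their annotated exons are shared in full with other genes. H2ac18, H2ac19, H2bc18, H3c13 and H3c14, all on chromosome 3, had 0 reads in each library, where a count of 3 corresponds to between 0.0428 and 0.0530 CPM. In M21, 100% of the exonic bases of these 5 genes lie in exons of another gene. The overlapping genes cover them fully on the opposite strand for H2ac18, H2ac19, H2bc18 and H3c13 and on the same strand for H3c14. In H2ac18 and H2bc18, 90.3% and 59.3% of the bases are also overlapped on the same strand. Among the 56 histone genes at 3 CPM or more, the overlapped part was at most 35.9%, and 16 genes had any. In between were H2ac21, at 2.20 CPM with 68.2% of its bases overlapped, and H4c2, at 1.21 CPM with 56.2%. H2ac1 and H1f6 were low with 33.1% and 0% overlapped. H2ac1, a testis form of H2A, had at most 1 read in any library. H3c13 differs by 1 base in its coding sequence from H3c15, which was at 690 CPM.

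Of the genes that overlap those at 0, the ones looked up were themselves low. Gm20632, which overlaps H2ac19, was between 4.64 and 7.05 CPM, and Gm20628, which covers H3c13 and H2bc18, between 1.84 and 4.10 CPM. Gm20633, which overlaps H2ac18, was between 1.28 and 2.15 CPM. Gm20634, which covers H3c14 and also overlaps H2ac18, was between 0.512 and 0.879 CPM. Gm42743, which overlaps H2bc18, was between 0.0312 and 1.98 CPM. Gm47311 and Gm47313, which overlap H2ac19 and H2ac18 in M21, were not looked up. Reads of a histone gene and of a gene annotated over it cannot be told apart from the table, and whether strand was used in counting is not given in the sources used here. The values of 0 are therefore what the table lists, and not a measurement of absent RNA.

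**Figure D2:**
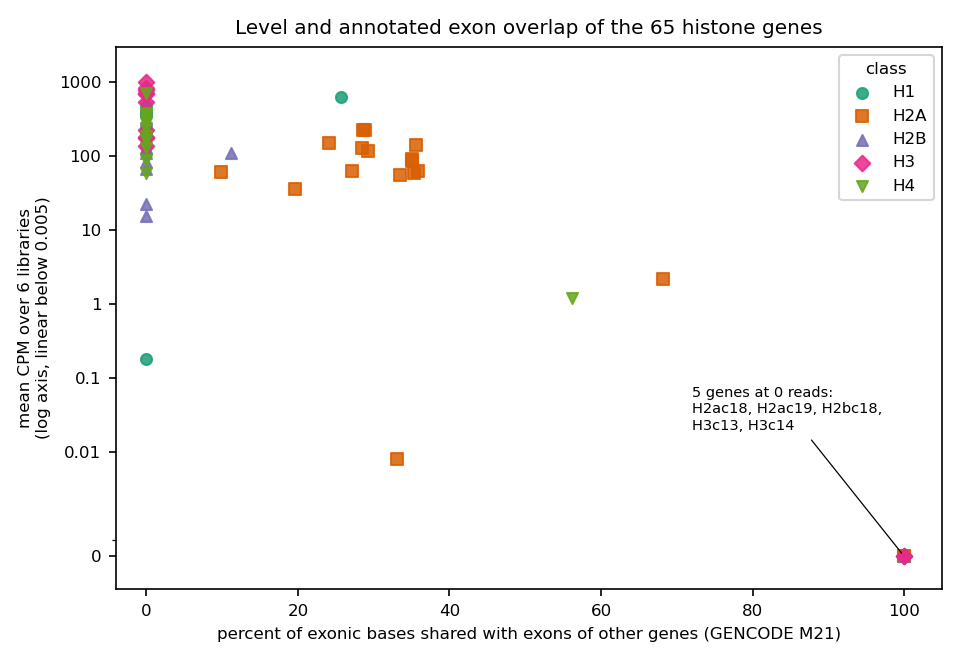
Mean level of each of the 65 histone genes over 6 libraries, in CPM on a log axis that is linear near 0, against the percent of its exonic bases shared with exons of other genes in GENCODE M21. The 5 genes at 0 reads are the ones at 100%, and the genes at 3 CPM or more are at 35.9% or less.

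The overlap also separated the classes. All 18 H2A genes had exonic bases covered by a gene on the opposite strand, with a median of 33.3%. The same was true of 1 gene for H2B, 1 for H3 and 1 for H4, and of none for H1. There were 13 pairs of an H2A and an H2B gene in opposite orientation with 175 to 305 bases between their starts. Per kilobase of coding sequence, the H2B gene of such a pair was mostly the higher one, for example by 8.92 times for H2bc8 over H2ac8, 4.71 times for H2bc4 over H2ac6 and 3.41 times for H2bc23 over H2ac23. It was lower for H2bc7 against H2ac7 (0.586) and for H2bc21 against H2ac20 (0.252). In these pairs the H2A gene had between 9.9% and 35.9% of its exonic bases overlapped and the H2B gene 0%. The ratios also depend on scaling by coding length, since H2bc23 has 2015 exonic and 402 coding bases and H2ac23 has 480 and 390. The part of the overlap and of the length in these ratios was not tested.

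The question put to these genes by the design is whether their RNA differs between embryos with and without Dlx1 and Dlx2. No histone gene passed the test. Of 59 histone genes with enough reads to be tested, 0 were called higher and 0 lower at an adjusted p under 0.05 with edgeR's quasi-likelihood test, where 2.68% of all 23628 tested genes were called (1.34% higher and 1.34% lower). With scaling by total count alone, the calls over all genes split into 60.4% higher in place of 50%, and the median of all genes moved from -0.0016 to 0.027 on the log2 scale. At an unadjusted p under 0.05 the count was also 0 of 59, compared with 13.3% of all tested genes. DESeq2 and limma-voom each called 0 after adjustment and had 1 gene at an unadjusted p under 0.05. The smallest adjusted p in the edgeR test was 0.411, for H2ac8. No histone gene had groups without overlap, whereas 19.5% of all tested genes did.

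The differences were small and nearly all in 1 direction. The log2 fold change of double knockout over wild type was above 0 for 56 of the 59 genes, with a median of 0.09, compared with -0.0016 for all tested genes. By class the medians were 0.16 for H1, 0.11 for H2A, 0.08 for H2B, 0.05 for H3 and 0.08 for H4. These class medians are not given without double knockout replicate 3, where the mean of summed CPM lay below wild type in each class. The 95% interval of the fold stayed under 2-fold for 56 of the 59 genes and above 0.5-fold for all 59. Without double knockout replicate 3 the median was -0.04 and 21 of 59 genes were above 0, so the direction rested on that library. Without wild-type replicate 1 the median was 0.04, with 40 of 59 above 0.

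**Figure D3:**
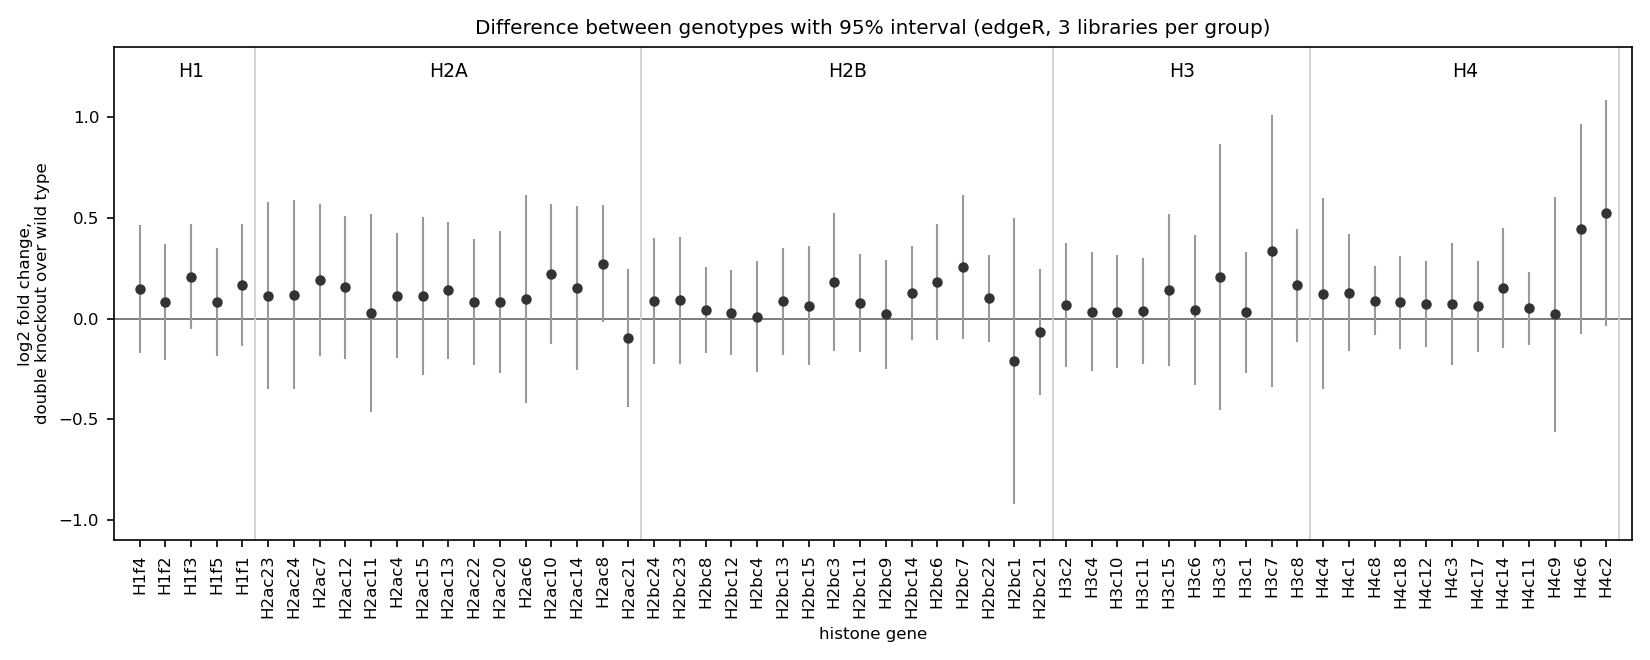
Log2 fold change of double knockout over wild type for the 58 histone genes at 1 CPM or more on average, as points with 95% intervals from edgeR (3 libraries per group), ordered as in the plot of levels. Every interval crosses 0, and most points lie a little above it.

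For the abundant genes the intervals are narrow enough to be stated. H1f4 had a log2 fold change of 0.15 (SE 0.14, edgeR adjusted p = 0.750), with a 95% interval from -0.17 to 0.46. H3c2 had 0.07 (95% interval -0.24 to 0.38), H2bc24 0.09 (-0.22 to 0.40) and H4c4 0.12 (-0.35 to 0.60). For H2ac23 the value was 0.11 (-0.35 to 0.58). The narrowest interval among the 4 most abundant genes of each class was that of H4c8, at 0.09 (-0.08 to 0.26). The other 14 genes of these groups lay between 0.03 and 0.21, with H1f3 at the upper and H2bc12 at the lower end.

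Among genes at 1 CPM or more, the largest positive values came from H4c2, H4c6 and H3c7. H4c2, the H4 gene whose annotation is 56.2% overlapped, was at 0.870, 0.762 and 1.34 CPM in wild type and at 1.34, 1.30 and 1.64 CPM in double knockout libraries. Its log2 fold change was 0.53 (SE 0.25, edgeR adjusted p = 0.414). H4c6 was at 43.6, 54.3 and 52.0 CPM in wild type and at 46.6, 97.1 and 60.8 CPM in double knockout libraries, with a log2 fold change of 0.45 (SE 0.23, edgeR adjusted p = 0.471). Replicate 2 of the double knockout alone stood far above the rest. H3c7 was at 176, 198 and 99.1 CPM in wild type and at 134, 280 and 183 CPM in double knockout libraries, a log2 fold change of 0.34 (SE 0.30, edgeR adjusted p = 0.730).

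The largest negative values came from H2bc1, H2ac21 and H2bc21. H2bc1, a testis form of H2B, was at 27.6, 33.1 and 11.5 CPM in wild type and at 19.5, 21.1 and 21.7 CPM in double knockout libraries. Its log2 fold change was -0.21 (SE 0.31, edgeR adjusted p = 0.861), and its wild-type libraries lay on both sides of all double knockout libraries. H2ac21 was between 1.86 and 2.42 CPM, with a log2 fold change of -0.10 (95% interval -0.44 to 0.25). H2bc21 was between 13.4 and 19.2 CPM, with -0.07 (-0.38 to 0.25). The groups overlapped in each of these genes.

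Single libraries stood further apart than the genotype averages. Against the mean of the wild-type libraries, the median histone gene with at least 1 CPM was 0.35 log2 units higher in double knockout replicate 3, where 57 of 58 genes were above that mean and 51 above all wild-type libraries (87.9%, compared with 34.9% of all genes at 1 CPM or more). In double knockout replicate 1 the median was -0.10, where 54 were below the mean and 17 below all wild-type libraries (29.3%, compared with 34.0% of all such genes). In double knockout replicate 2 the median was -0.01, with 28 genes above and 30 below. Double knockout replicate 3 was the highest of the 6 libraries for 48 of 59 tested histone genes, compared with 22.3% of all tested genes.

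Between libraries of 1 genotype the histone genes varied more than most genes. The SD of log2 CPM within groups had a median of 0.22 for histone genes, compared with 0.11 for all tested genes at 1 CPM or more. Without double knockout replicate 3 the medians were 0.13 and 0.089. Measured as the difference from each gene's own mean over 6 libraries, the median histone gene was at -0.14, 0.03 and -0.004 in the wild-type libraries and at -0.14, -0.04 and 0.30 in those of the double knockout. The median Pearson correlation of a gene with the median of the other histone genes over the 6 libraries was 0.90, as a description over libraries that the genes share. With the mean of each genotype subtracted it was 0.89. Without double knockout replicate 3, over 5 libraries, these medians were 0.65 and 0.69. Over all 6 libraries the correlation was under 0.5 for 6 genes, namely H2bc1, H4c9, H3c7, H4c6, H2bc21 and H4c2. For H3c3 it was 0.555, and for H2ac21, H2bc22 and H2bc6 between 0.533 and 0.548. H4c9 and, below, H3c3 are not among the genes chosen by level or fold change and are named because of their values.

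**Figure D4:**
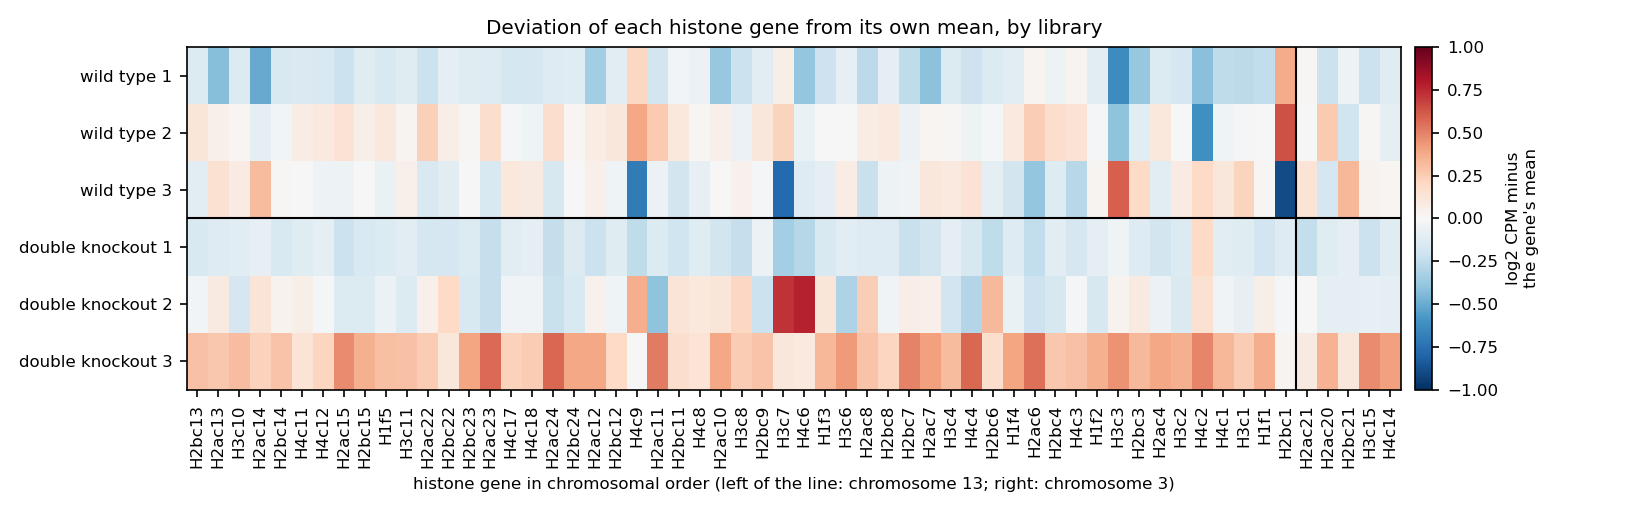
Difference of log2 CPM from each gene's own mean over the 6 libraries, for the 58 histone genes at 1 CPM or more on average in chromosomal order (red above, blue below the mean). The row of double knockout replicate 3 is red for nearly all genes, while H4c9, H3c7, H4c6, H3c3 and H2bc1 have a pattern of their own.

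H4c9, H3c7, H4c6, H3c3 and H2bc1, set apart in the plot of deviations, each varied by more than 2-fold between libraries of 1 genotype. H3c3 was at 140, 164 and 328 CPM in wild type and at 211, 222 and 296 CPM in double knockout libraries. H4c9 was at 98.8, 112 and 52.7 CPM in wild type and at 71.8, 110 and 85.7 CPM in double knockout libraries. In wild-type replicate 3, H3c3 was at its highest, while H3c7, H4c9 and H2bc1 were at their lowest. H3c7 and H4c6 are neighbours on chromosome 13, and both were highest in double knockout replicate 2. H3c3 and H3c7 carry the same form of stem-loop, and each has close copies, since H3c3 differs from H3c2 at 6 of 408 coding bases and H3c7 from H3c6 at 5. How much of these differences comes from reads shared with copies was not tested.

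Copies this close were common. Of 292 pairs of genes of the same class and coding length, 71 were at least 98% identical and 4 were identical. Identity had a median of 97.44% for H2A, 97.35% for H2B, 97.55% for H3 and 94.66% for H4. Counts of single histone genes are therefore uncertain.

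The genes that process histone mRNA showed no difference between genotypes that passed the test. None of the 18 tested genes of that list was called, with edgeR, and none had an unadjusted p under 0.05. Their median log2 fold change was 0.02. Slbp, whose product binds the stem-loop, was at 61.3 ± 2.70 CPM in wild type against 63.0 ± 7.04 CPM in the double knockout (SD, n = 3). Lsm10 was at 6.82 ± 0.422 and 7.08 ± 0.495 CPM and Lsm11 at 36.4 ± 2.90 and 34.3 ± 2.97 CPM. Npat, the coactivator of histone genes in S phase, was at 61.2 ± 3.03 and 62.7 ± 2.90 CPM, and Casp8ap2, a protein of histone locus bodies, at 99.4 ± 6.71 and 100 ± 1.71 CPM. In each the difference was smaller than the spread between libraries. Double knockout replicate 3 was the highest library for 11 of the 18 genes, compared with 22.3% of all tested genes.

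For replication-independent histones and histone chaperones no gene passed the test. Of 11 genes for replication-independent histones, 0 were called with edgeR, and 1, Macroh2a2, had an unadjusted p under 0.05, with 193 ± 7.73 CPM in wild type against 173 ± 6.94 CPM in the double knockout (log2 fold change -0.15, edgeR adjusted p = 0.224). Their median log2 fold change was 0.0006. Of 15 chaperone genes, 0 were called and 0 had an unadjusted p under 0.05, with a median of 0.01. In double knockout replicate 3 the median gene was 0.13 above its own mean for the replication-independent histones and 0.14 for the chaperones, beside 0.30 for the replication-dependent genes.

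Cell cycle genes, like the histone genes, were nearly all highest in double knockout replicate 3, and none passed the test between genotypes. Of 37 S phase genes, 0 were called with edgeR and 1, Mcm4, had an unadjusted p under 0.05. Their median log2 fold change was 0.08, and 36 of 37 were highest in double knockout replicate 3, compared with 22.3% of all tested genes. Of 20 genes of G2 and mitosis, 0 were called and 1, Mki67, had an unadjusted p under 0.05, with a median of 0.09 and all 20 highest in that library. Without it the medians were -0.03 for S phase, with 15 of 37 genes above 0, and -0.04 for G2 and mitosis, with 5 of 20 above 0. Mcm2, a subunit of the replicative helicase, was at 132, 149 and 149 CPM in wild type and at 144, 147 and 187 CPM in double knockout libraries. Pcna, the sliding clamp of replication, was at 119, 123 and 125 CPM and at 115, 121 and 145 CPM. Mki67, a marker of dividing cells, was at 481, 580 and 581 CPM and at 634, 573 and 783 CPM (log2 fold change 0.28, edgeR adjusted p = 0.373). In each of these genes double knockout replicate 3 was the highest library, and the groups overlapped with and without it.

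The summed levels of progenitor and neuron markers did not overlap between genotypes, as was also true of 19.5% of all tested genes taken singly. The sum of 7 progenitor markers was between 1630 and 1808 CPM in wild-type libraries and was 2058, 1963 and 2141 CPM in those of the double knockout. Double knockout replicate 3 was the highest library for 3 of the 7, Nes, Sox2 and Vim, compared with 22.3% of all tested genes. Fabp7, a lipid-binding protein of radial glia, was at 306, 284 and 262 CPM in wild type and at 404, 353 and 263 CPM in double knockout libraries, lowest of the latter in replicate 3. Of the 7 progenitor markers, 4 had an unadjusted p under 0.05 with edgeR, compared with 13.3% of all tested genes. Among them 1, Hes5, a Notch target of progenitors, was called higher. It was at 24.0 ± 1.94 CPM in wild type against 38.5 ± 2.95 CPM in the double knockout (edgeR adjusted p = 0.00401). The sum of 7 neuron markers was between 5732 and 6245 in wild type and was 5539, 5406 and 4670 in double knockout replicates 1 to 3, lowest in replicate 3. None of the 7 was called with edgeR, and 3 had an unadjusted p under 0.05, beside the same 13.3% of all tested genes. Their part in the level of the histone genes was not tested.

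**Figure D5:**
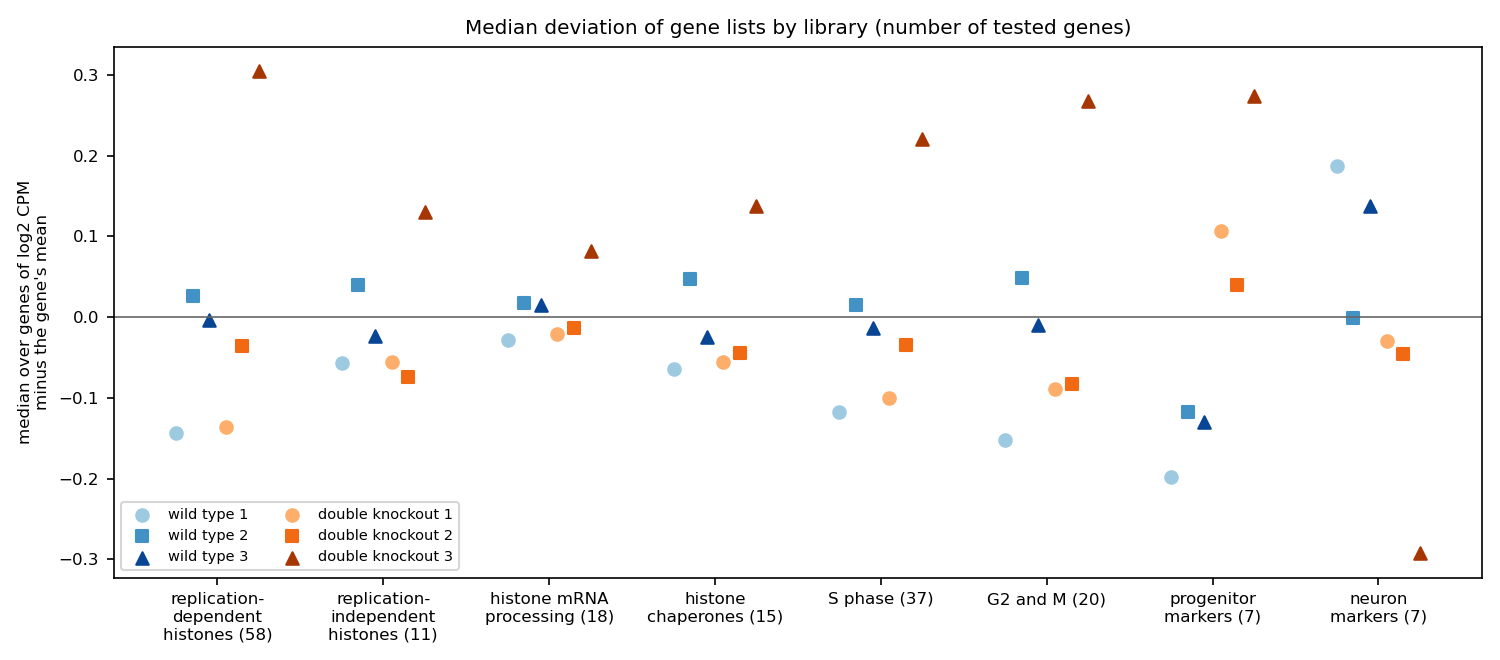
Median over the genes of each list of log2 CPM minus the gene's own mean, by library, with the number of tested genes in brackets. Among the 8 lists plotted, double knockout replicate 3 is the highest library for all but the neuron markers, where it is the lowest at -0.29.

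Markers of other cell types gave no called gene for blood, vessels, microglia or meninges. The summed level of 9 erythroid genes was between 108 and 136 CPM in wild-type libraries and between 98.1 and 156 CPM in the double knockout, and that of 7 vascular genes between 152 and 185 and between 166 and 194 CPM. Microglial (6 genes) and meningeal (5 genes) sums were at most 40.7 and 26.1 CPM in any library. None of these lists held a marker at 0 in all libraries. Of the 7 cortical markers, 1, Neurod2, was called lower with edgeR, and the sum was between 874 and 902 CPM in wild-type libraries and between 659 and 703 CPM in the double knockout. All 7 had negative log2 fold changes with an unadjusted p under 0.05, compared with 13.3% of all tested genes at that p in either direction. Of the 10 markers of the ganglionic eminence, 3 were called higher and 5 lower, compared with 1.34% of all tested genes in each direction. Of the 10, 9 had an unadjusted p under 0.05, compared with 13.3% of all tested genes. The 5 called lower include Gad1 and Gad2, targets known to need Dlx genes. Of 10 structural RNAs without a poly(A) tail that were looked up, 7 were listed and 3 could be tested. Rmrp, Rnu11 and Terc were listed at 0 reads in all libraries, and Rpph1 had 1 read, in double knockout replicate 1. As for the histone genes at 0, these values are not a measurement of absent RNA. The exception in level was Rn18s, the RNA of the small ribosomal subunit, at 10111, 8691 and 16596 CPM in wild type and at 6882, 6028 and 8330 CPM in double knockout libraries (edgeR adjusted p = 0.180). Its part in the histone values was not tested.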

How the data were processed

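Total RNA libraries from 3 wild-type and 3 double knockout samples were compared. The authors deposited whole-number read counts per gene with symbols and Ensembl identifiers. Per the submitters' processing notes, featureCounts and the build GRCm39 were used. The aligner, the annotation release and the strand and multi-mapping settings are not given in the sources used here. Of the table's genes, 1492 (2.69%) have no symbol and could not be histone genes by the naming rule. The table has no coordinates. Exon overlaps, coding lengths, stem-loops and gene order came from GENCODE M21 (GRCm38) by gene identifier, and promoters from RefSeq (GRCm38.p6), which are not the authors' build, and no coordinate was converted. Overlaps in the authors' annotation may differ.

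Sample titles gave the groups and replicate numbers. The filter was filterByExpr (minimum count 10, minimum total 15) with scaling by TMM, and genes were tested over the whole table with edgeR 4.0.16 (quasi-likelihood test, prior count 0.125, Benjamini-Hochberg, adjusted p under 0.05) in R 4.3.3. Total counts per library give a floor of 3 counts at 0.0428 to 0.0530 CPM, which covers counting error only, since reads without molecular identifiers are not independent molecules. The 95% intervals came from the fitted coefficient and its SE. The test was checked on simulated counts.

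The histone genes and the gene lists were chosen with earlier results of these data known. Named by rule were the called histone genes, the 4 most abundant per class, the 3 largest rises and falls at 1 CPM or more, those at 0 where a class has few, and, from other lists, called genes, up to 4 with the smallest p and 8 fixed genes. The genes H1f1, H1f6, H2ac1, H2ac6, H2ac8, H2ac20, H2bc4, H2bc7, H3c3, H3c15, H4c9, H4c17, Rn18s and the overlapping Gm genes were chosen with their values in view. Not every gene that the rule allows is named. Alternatives were DESeq2 1.42.0, limma-voom (limma 3.58.1), DESeq2 size factors, total count scaling, no filter, a filter at 1 CPM, a replicate block, a covariate for Y-linked expression, other thresholds and leaving out each library. The class sums, SDs, correlations and cell cycle medians without double knockout replicate 3 were added after seeing the data.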

Additional observations from a re-analysis of the deposited data

How the results depend on the processing

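No alternative called a histone gene, an S phase gene, a gene of G2 and mitosis or a gene of histone mRNA processing. Histone genes with an unadjusted p under 0.05 numbered 2 with total count scaling, 5 with no filter, 6 without wild-type replicate 3, 11 without double knockout replicate 1 and 0 or 1 otherwise, apart from the block below. The share of all tested genes at that p was 13.3% in the main edgeR fit. It is not given for the alternatives, the block included, so these counts cannot be set against a background and are not read as a result. The smallest adjusted p of a histone gene was 0.0532 without wild-type replicate 3 and 0.0659 without double knockout replicate 1. Over all genes, the number called was 634, and 1162 with DESeq2, 357 with a covariate for Y-linked expression (high in wild-type replicate 1 and double knockout replicates 2 and 3), 989 at an adjusted p under 0.1, 275 at one under 0.01, and between 309 and 749 when 1 library was left out. The cause was not tested, apart from the thresholds and the smaller number of libraries. The median log2 fold change of histone genes ranged from -0.04 (without double knockout replicate 3) to 0.19 (without double knockout replicate 1).

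Of 364 values of the 26 named histone genes under alternatives, 340 kept their sign, and none of the 364 passed the threshold. The other 24 changed sign, all on leaving out 1 library and mostly double knockout replicate 3. Over the leave-one-out fits the log2 fold change of these genes had the following lowest and highest values, for H1f2 from -0.0913 to 0.18, H1f4 from -0.0327 to 0.24, H1f5 from -0.0571 to 0.17, H2ac12 from -0.0127 to 0.29, H2ac23 from -0.19 to 0.25, H2ac24 from -0.20 to 0.26 and H2bc1 from -0.54 to 0.0930. The values ran for H2bc12 from -0.0648 to 0.0945, H2bc21 from -0.17 to 0.10, H2bc23 from -0.11 to 0.19, H2bc24 from -0.11 to 0.18, H2bc8 from -0.0587 to 0.11, H3c10 from -0.12 to 0.12 and H3c11 from -0.11 to 0.12. They ran for H3c2 from -0.11 to 0.15, H3c4 from -0.13 to 0.13, H4c1 from -0.0134 to 0.22, H4c18 from -0.0274 to 0.15 and H4c4 from -0.19 to 0.28.

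The libraries were not treated as paired, since the labels do not say that same-numbered libraries come from littermates. The correlation of deviations from the group mean between same-numbered libraries is given as a description. It was -0.063, -0.00129 and 0.035 for numbers 1 to 3 over all tested genes and -0.046, 0.167 and 0.155 over the tested histone genes. With the replicate block, 690 genes were called in all and 0 histone genes, 10 histone genes had an unadjusted p under 0.05, the smallest adjusted p was 0.0945 and the median log2 fold change was 0.08. With 3 libraries per group and histone genes that vary by a median SD of 0.22 within groups, differences smaller than the intervals given could not be detected.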

Other observations

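Several histone genes fall outside the naming rule but belong to the same families. H4f16, an H4 gene outside the H4c names, was at 222 ± 4.36 CPM in wild type against 240 ± 22.7 CPM in the double knockout (SD, n = 3), a log2 fold change of 0.11 (edgeR adjusted p = 0.597). H2bu2 was between 102 and 113 CPM over all libraries. H2aw was between 20.8 and 22.1 CPM in wild type and between 17.0 and 20.6 CPM in the double knockout. H3f3c, named like the replication-independent H3f3 genes but not in that list, was at 72.7 ± 3.27 CPM in wild type against 65.1 ± 3.76 CPM in the double knockout (log2 fold change -0.16, unadjusted p = 0.0278 and adjusted p = 0.286 with edgeR). None of the 4 passed the test.

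The gene listed as H2af-ps2 varied far more than these. It had 4642, 11878 and 36 reads in wild-type replicates 1 to 3 and 10751, 10167 and 14709 reads in double knockout replicates 1 to 3, with a log2 fold change of 1.07 (SE 1.07, edgeR adjusted p = 0.773). Gm42743, annotated over H2bc18, was also lowest in wild-type replicate 3, with 2 reads there and between 44 and 137 in the other libraries. Both were picked out for their values.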
